A study of Mus musculus with 24 samples.

Results

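The activity-dependent immediate early genes are a set of 10 genes, chosen by name, out of the 48709 genes counted in these libraries. They are Fos, Fosb, Junb, Egr1, Egr2, Egr4, Arc, Npas4, Nr4a1 and Bdnf. The question addressed was whether gestational exposure to nano-sized particulate matter (nPM) changed their RNA level in the neonatal mouse cerebral cortex, with blood of pups of the same groups beside it. nPM is the nano-sized fraction of urban traffic particles, collected near a freeway and aerosolized again for inhalation. Pregnant C57BL/6 dams (the labels give the pups as C57BL/6J and the study's methods give the mice as C57BL/6NJ) breathed nPM at a level of 300 (mg/m3 in the labels, μg/m3 in the study's methods) for 5 h a day on 3 days a week from gestational day 2 until birth, and control dams breathed filtered air. Cortex and blood were taken from pups aged 3 to 5 days by the sample labels, where the protocol gives day 5, and the groups were control females, control males, nPM females and nPM males, with 3 libraries per sex and exposure in each tissue. No engineered allele is named, and the labels tie neither the blood and cortex of a pup nor the pups of a litter to each other. P-values therefore measure the spread between these libraries, and pups that may share a dam were counted as separate. The study states that the 3 pups of a sex and exposure came from different litters, and that both tissues came from the same animals. Cortex and blood of a pup were thus also counted as separate where the tissues were compared.

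Immediate early genes are transcribed within minutes of a stimulus and need no new protein for their first burst. In neurons the stimulus is calcium entering through NMDA receptors and voltage-gated channels. It reaches the CREB and SRF transcription factors through calcium/calmodulin-dependent and MAP kinases. The products fall into 2 roles, transcription factors that pass the signal on to later genes (Fos, Fosb, Junb, the Egr family, Npas4, Nr4a1) and effectors that act at the synapse (Arc and Bdnf). In the first postnatal days cortical circuits are still immature, and the level in unstimulated tissue is known to follow what the animal met just before the tissue was taken, handling included.

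The promoters are shown because these genes share short elements through which activity is known to act, and because several of them varied together between libraries. RefSeq windows of GRCm38.p6, from 250 bases before to 50 bases after each annotated start, were at hand for 8 of the 10 genes. Arc and Egr1 had no entry. The core letters of the cAMP response element (CRE), TGACG on either strand, were found in 10 of the 18 windows of these genes, at least 1 window for each of the 8, and in 20.8% of the 32851 mouse windows, while the whole palindromic CRE, TGACGTCA, was in none of these genes' windows and in 1.79% of all. At least 2 core matches in a window, which occurred in 5.01% of all windows, were found in the windows of Fos, Egr2, Egr4, Npas4 and Nr4a1 printed here 5′ to 3′ on the gene's strand. Capitals mark the CRE core and, in Egr2, the serum response element as well.
Fos, chr12:85473640-85473939, plus strand: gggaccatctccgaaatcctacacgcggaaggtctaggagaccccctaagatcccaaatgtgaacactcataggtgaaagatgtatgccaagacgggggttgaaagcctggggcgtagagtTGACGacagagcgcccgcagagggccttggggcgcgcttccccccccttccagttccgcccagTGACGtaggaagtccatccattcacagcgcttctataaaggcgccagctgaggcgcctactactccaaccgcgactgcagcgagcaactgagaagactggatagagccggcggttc
Egr2, chr10:67537619-67537918, plus strand: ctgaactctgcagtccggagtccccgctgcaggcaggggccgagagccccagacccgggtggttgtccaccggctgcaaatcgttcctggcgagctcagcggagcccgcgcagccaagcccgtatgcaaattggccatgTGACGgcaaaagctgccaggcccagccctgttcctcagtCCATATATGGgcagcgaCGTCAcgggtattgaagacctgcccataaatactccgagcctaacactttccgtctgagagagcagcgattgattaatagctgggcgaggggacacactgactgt
Egr4, chr6:85513540-85513839, minus strand: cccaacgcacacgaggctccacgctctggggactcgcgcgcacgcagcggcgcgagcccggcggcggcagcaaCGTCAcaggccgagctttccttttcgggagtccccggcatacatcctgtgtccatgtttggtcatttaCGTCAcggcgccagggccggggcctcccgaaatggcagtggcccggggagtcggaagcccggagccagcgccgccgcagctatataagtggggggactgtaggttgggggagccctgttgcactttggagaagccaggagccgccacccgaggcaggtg
Npas4, chr19:4989922-4990221, minus strand: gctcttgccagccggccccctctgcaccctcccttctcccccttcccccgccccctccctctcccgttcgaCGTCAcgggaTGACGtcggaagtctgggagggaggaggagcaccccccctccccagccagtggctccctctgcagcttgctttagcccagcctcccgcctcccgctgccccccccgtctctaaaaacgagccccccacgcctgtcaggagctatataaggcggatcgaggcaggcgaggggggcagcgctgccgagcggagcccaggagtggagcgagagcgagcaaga
Nr4a1, chr15:101266596-101266895, plus strand: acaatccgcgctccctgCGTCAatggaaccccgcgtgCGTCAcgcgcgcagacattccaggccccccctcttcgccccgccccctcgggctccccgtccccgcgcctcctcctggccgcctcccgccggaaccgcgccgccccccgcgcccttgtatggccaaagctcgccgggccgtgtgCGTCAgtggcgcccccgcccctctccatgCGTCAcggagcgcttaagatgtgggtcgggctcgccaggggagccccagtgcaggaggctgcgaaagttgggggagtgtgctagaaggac

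In Fos the matches began 129 and 66 bases before the annotated start, and in Egr4 177 and 109 bases before it. In Npas4 they began 179 and 169 bases before the start, within 10 bases of each other. Nr4a1 had 4 matches, at 233, 213, 69 and 40 bases before its start. Egr2 had CRE core matches at 111 and 55 bases and a serum response element, searched on both strands by its name alone, at 72 bases between them. The same site lay in 3 overlapping Egr2 windows, a further Egr2 window of 5 in all held another match at a second site, and 1.63% of all windows held one. Bdnf has several alternative first exons, and 1 of its 7 windows held the CRE core. A match of letters describes the window and is no evidence that a factor was bound there.

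By mm10 coordinates the genes lie on 9 chromosomes. Fos is at chr12:85473890-85477273 on the plus strand and Fosb at chr7:19302696-19310051 on the minus strand. Junb lies at chr8:84974484-84978718 on the minus strand, where its annotated span overlaps Prdx2 on the other strand by 351 bases. Egr1 is at chr18:34859823-34864984 and Egr2 at chr10:67535475-67542188, both on the plus strand, and Egr4 at chr6:85511121-85513589 on the minus strand. Arc is at chr15:74669083-74672570 on the minus strand, Npas4 at chr19:4984355-4989971 on the minus strand, and Nr4a1 at chr15:101266846-101274792 on the plus strand. Bdnf spans chr2:109674700-109727007 on the plus strand and overlaps the antisense gene Gm45346 by 1892 bases. Counts are per gene, and the sources used here do not say whether strand was used, so the counts of Junb and Bdnf can hold reads of the overlapping gene.

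Cortex libraries held 22301409 to 33804371 counted reads and blood libraries 13595647 to 21895536, so that 3 reads, the floor used here for a detected gene, were worth 0.0887 to 0.135 counts per 1000000 counted reads (CPM) in cortex and 0.137 to 0.221 in blood. Integrity numbers ran from 9.4 to 9.9 for cortex RNA and from 7.5 to 9.3 for blood RNA. At least 1 read in every library was seen for 20857 genes in cortex and 9963 in blood. The cortex libraries carried the markers of cortical excitatory neurons, with a summed level of 735 to 950 CPM. A single control female blood library, V2, stood apart from the other 11, with 22461 genes detected against 13254 to 17273 and globin transcripts at 50.1% of its reads against 66.2% to 76.8%. The study left out 1 blood sample for its count distribution, and V2 was left out of the blood comparison here and is described by itself.

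All 10 genes were detected in every cortex library, with at least 4 reads each. Per length, as reads per kilobase of exon scaled to library size (RPKM), Arc was the most abundant, at 4.74 ± 1.07 RPKM (mean ± SD, n = 12). Arc encodes a synaptic protein that removes AMPA receptors from the membrane. Nr4a1, an orphan nuclear receptor, followed at 4.28 ± 0.667 RPKM, Junb, a partner of FOS proteins in the AP-1 complex, at 4.23 ± 0.548 and Egr1, a zinc finger factor, at 3.81 ± 0.710. These 4 levels lay within 1 SD of their neighbours. Bdnf, a secreted neurotrophin, was at 2.501 ± 0.322 RPKM and lay below Egr1 in 12 of 12 libraries. Npas4, a factor induced selectively by calcium in neurons, was at 1.62 ± 0.323 RPKM, Fos at 1.58 ± 0.319 and Egr4 at 1.29 ± 0.335, and these 3 neighbours overlapped. Egr2, known also for its role in myelinating cells, was lower at 0.552 ± 0.126 RPKM, and Fosb was the lowest at 0.0717 ± 0.0257 RPKM, each below its neighbour in 12 of 12 libraries. Fosb rested on 4 to 21 reads a library, so its counting error alone gives a coefficient of variation of 27.4%, against 36.1% observed. For Arc the counting error was 4.80% against 22.9% observed, and for Egr1 4.44% against 18.2%, so that most of their spread was beyond counting error.

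None of the 10 genes passed the test for a change with nPM in cortex. By edgeR's quasi-likelihood test with sex and RNA integrity as covariates, 0 of 10 passed a Benjamini-Hochberg adjusted p of 0.05, where 0.0144% of all 20857 genes tested did, and 0 of 10 had an unadjusted p under 0.05, where 5.67% of all genes did. DESeq2 and limma voom called 0 of 10 as well. The estimate was lower in nPM for 7 genes and higher for 3, with a median log2 fold change of -0.08 against -0.002 over all genes. This direction depended on a single library: without the control male V24, 6 of 10 estimates were higher in nPM and the median was 0.05. Levels below are CPM after TMM scaling, and the lowest, median and highest of 6 libraries are given for each exposure.

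Fos, the founding member of the group and the usual marker of recently active neurons, ran from 3.49 through a median of 4.12 to 4.49 CPM in controls and from 2.46 through 3.30 to 4.85 in nPM pups. Of the 6 nPM libraries, 5 lay below the control median and 3 below every control, while the nPM female V20 was the highest of all 12. The log2 fold change was -0.28 (SE 0.14, 95% interval -0.57 to 0.02, edgeR adjusted p = 0.863), and an exact two-sided permutation test of the means gave p = 0.160, where the smallest possible was 0.00216. The log2 difference was -0.32 within sequencing lane 2 and -0.05 within lane 3. Lane 3 held only the control cortex libraries V19 and V24 and the nPM cortex libraries V20 and V23.

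Nr4a1 ranged from 9.36 through 11.3 to 13.3 CPM in controls and from 8.24 through 9.85 to 11.1 in nPM pups. All 6 nPM libraries were below the control median and 2 were below every control, but the groups overlapped. Its log2 fold change of -0.23 (SE 0.11, 95% interval -0.46 to 0.004) had the smallest unadjusted p of the set, 0.0535 by edgeR, with an adjusted p of 0.862, and the exact permutation p was 0.0758. The difference was -0.16 in lane 2 and -0.33 in lane 3, and -0.17 without V24.

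Egr1, which binds GC-rich promoters of later synaptic genes, ran from 12.8 through 17.2 to 23.6 CPM in controls and from 14.2 through 15.7 to 17.7 in nPM pups. The nPM libraries fell inside the wider control range, so the means of 18.3 ± 4.03 and 15.9 ± 1.30 (SD, n = 6) differed by less than the control spread. The log2 fold change was -0.20 (SE 0.10, edgeR adjusted p = 0.868, exact permutation p = 0.227), and -0.11 without V24. The log2 difference was -0.11 within lane 2 and -0.29 within lane 3.

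The other Egr genes and Junb differed less. Egr2 spanned 1.31 to 2.77 CPM in controls with a median of 1.80, and 1.42 to 2.35 in nPM pups with a median of 1.88. Egr4 spanned 1.83 to 4.47 CPM with a median of 2.90 and, in nPM pups, 2.23 to 2.96 with a median of 2.65. In both genes every nPM library lay inside the control range. Junb was at 9.75 ± 1.01 CPM in controls, from 8.73 to 11.6, and at 9.73 ± 1.61 in nPM pups, from 7.92 to 12.1, with the exposed group holding both the lowest and the highest library. The log2 fold changes were -0.06 for Egr2 (95% interval -0.46 to 0.35), -0.12 for Egr4 (-0.46 to 0.23) and -0.02 for Junb (-0.24 to 0.20). Within lane 2 the log2 differences were 0.02 for Egr2, -0.16 for Egr4 and -0.01 for Junb. Within lane 3 they were -0.10, 0.09 and -0.01.

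Fosb, which encodes a relative of FOS whose stable splice form builds up with repeated stimulation, had the largest estimate, on the higher side. It ran from 0.128 through 0.371 to 0.646 CPM in controls and from 0.354 through 0.505 to 0.666 in nPM pups. Its log2 fold change of 0.35 had the widest interval of the set, -0.37 to 1.07, and the exact permutation p was 0.225. The log2 difference changed sign between lanes, at 0.42 within lane 2 and -0.24 within lane 3.

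Npas4 and Bdnf, its known target, had nearly equal means in the 2 groups. Npas4 averaged 5.29 ± 1.47 CPM in controls, from 3.31 to 6.86, and 5.32 ± 0.511 in nPM pups, from 4.72 to 6.10. Bdnf averaged 15.4 ± 2.69 CPM in controls, from 11.8 to 19.02, and 15.7 ± 1.34 in nPM pups, from 13.99 to 17.3. For both genes all 6 nPM libraries lay inside the control range. The 95% intervals of the log2 fold change were -0.31 to 0.31 for Npas4 and -0.21 to 0.24 for Bdnf. The log2 difference of Npas4 was 0.03 within lane 2 and 0.08 within lane 3. That of Bdnf changed sign, at 0.24 within lane 2 and -0.38 within lane 3. Arc ran from 10.9 through 14.1 to 22.6 CPM in controls and from 11.9 through 13.8 to 16.5 in nPM pups, and its log2 fold change of -0.10 (SE 0.15) became 0.07 without V24, which had the highest Arc level of all. Its log2 difference was 0.08 within lane 2 and -0.32 within lane 3, which holds V24.

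**Figure D1:**
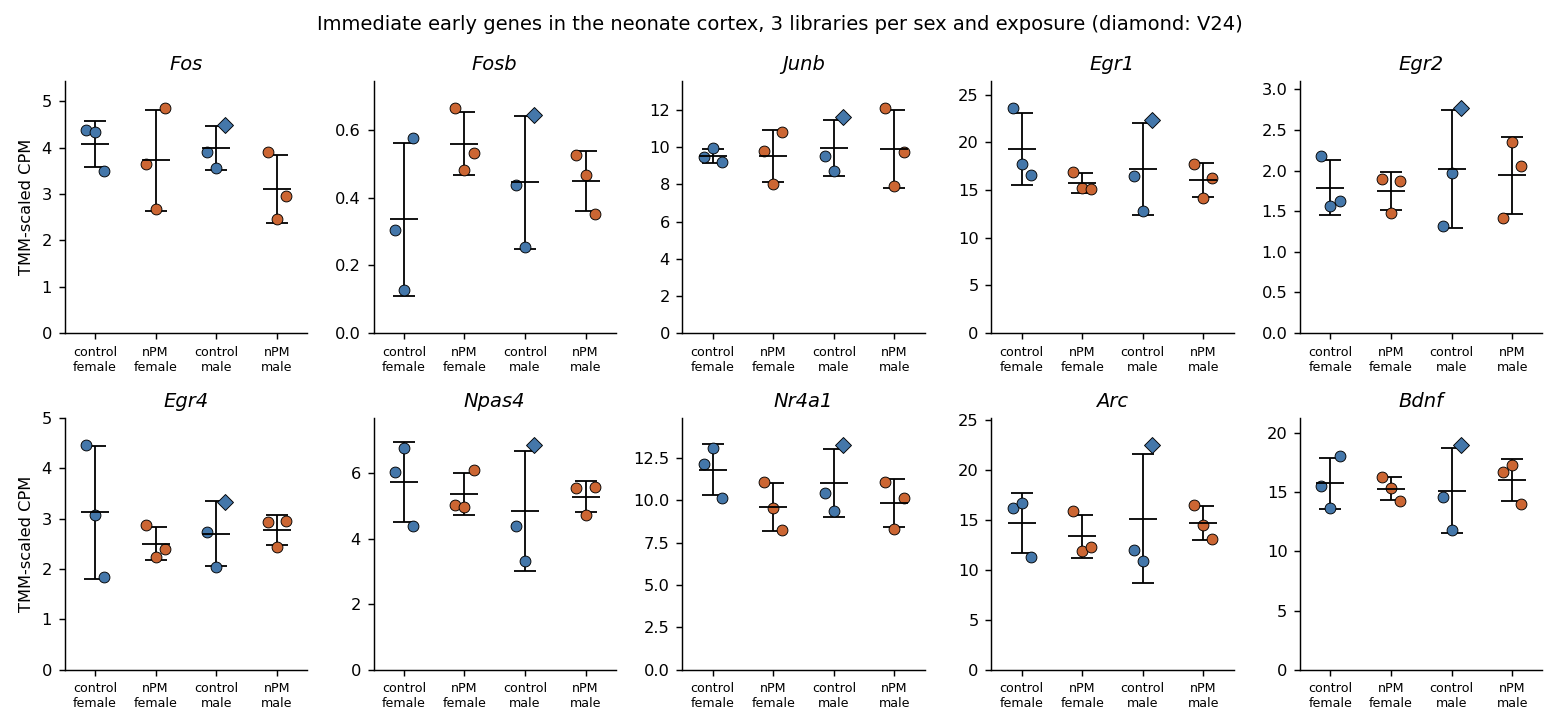
Level of each of the 10 genes (CPM after TMM scaling) in the 12 cortex libraries by sex and exposure, with dots for libraries, bars for the mean ± SD of 3 and a diamond for the control male library V24. The nPM and control libraries overlap in every panel, and V24 is the highest library for 5 of the 10 genes.

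The control male library V24 was among the 3 highest of the 12 for all 10 genes and the highest for 5. Its median log2 deviation from the gene medians was 0.37. The control female V10 lay above the median for 8 genes, by a median of 0.21, and the control male V16 was among the 3 lowest for 8 genes, by a median of -0.36. The 3 libraries farthest from the rest were thus all controls, on both sides of the median. In V24 the summed markers of microglia (165 CPM) and of cortical excitatory neurons (950 CPM) and the summed heat shock genes (4316 CPM) were also the highest of the 12 cortex libraries, whose lowest sums were 93.9, 735 and 3579 CPM. V10 differed from V24 there, with the lowest heat shock sum (3579 CPM) and the highest sums of inhibitory neuron (283 CPM), striatal (273 CPM) and meningeal markers (165 CPM). The control male V14 stood apart in choroid plexus markers, at 30.5 CPM against 233 to 507 in the other 11, and had the lowest striatal sum, 74.2 CPM. The part of these markers in the immediate early gene levels was not tested. Without V24 the log2 fold changes were -0.23 for Fos, 0.57 for Fosb, 0.04 for Junb, -0.11 for Egr1, 0.07 for Egr2, -0.07 for Egr4, 0.13 for Npas4 and 0.10 for Bdnf, with adjusted p-values of 0.663 to 0.941 over the 10 genes by edgeR.

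**Figure D2:**
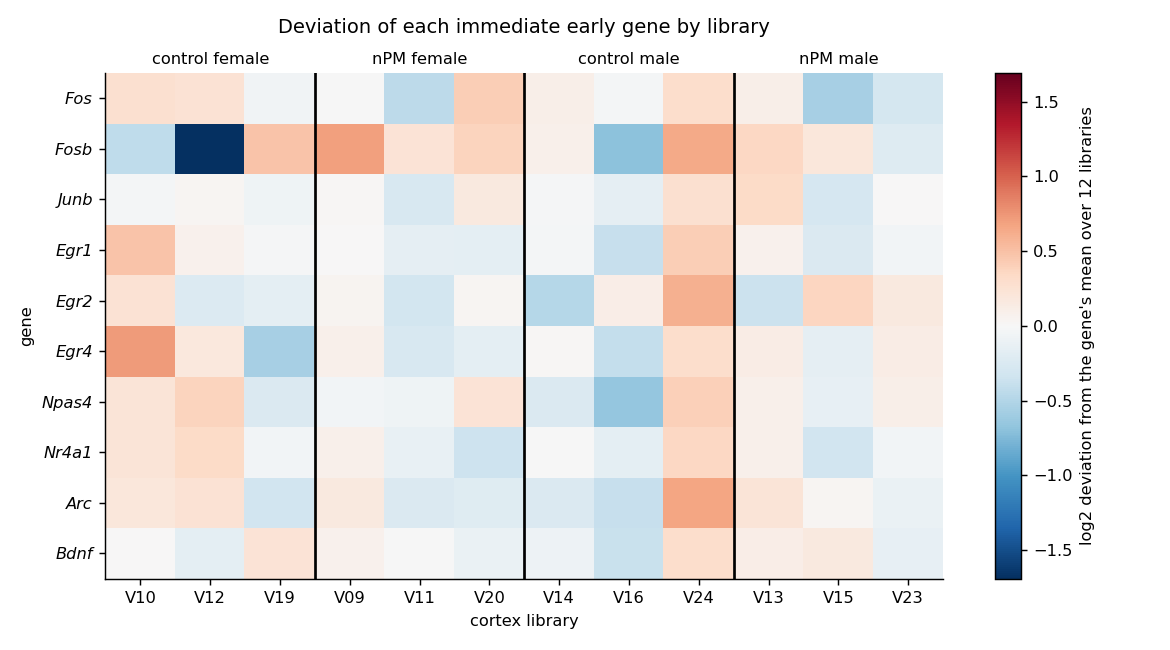
Deviation of each gene from its mean over the 12 cortex libraries (colour, log2 scale of CPM after TMM scaling), with genes in rows and libraries in columns by sex and exposure. V24 lies above the mean for the whole set and V16 below it for most genes.

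Between libraries the genes tended to vary together. Over the 12 cortex libraries, 40 of the 45 pairs of genes had a positive Pearson correlation of log2 CPM, with a median r of 0.424 and a range of -0.269 to 0.817. The median r was 0.468 after the mean of each sex and exposure was taken out and 0.396 within lane 2. It was 0.284 without V24 and 0.214, with 29 of 45 pairs positive, without V10 and V24 together, so the strength of this pattern rested in part on those 2 control libraries. All values of a library share its scaling factor and its tissue piece, and no p was computed for the set. The share of positive pairs among other genes is not given here, so the pattern is not shown to be particular to these 10 genes.

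Egr1 and Nr4a1 were the most closely tied pair by rank. Pearson's r was 0.808 (permutation p = 0.00139, 0.0313 after Benjamini-Hochberg adjustment over 45 pairs) and Spearman's rho was 0.944 (permutation p = 3e-05, adjusted 0.00135), with r = 0.759 without V10 and V24 and 0.770 within lane 2. Egr1 and Egr4 had an r of 0.817 (permutation p = 0.00135, adjusted 0.0313) and a rho of 0.769 (permutation p = 0.0050, adjusted 0.0501), with r = 0.597 without V10 and V24 and 0.977 within lane 2. These were the only 2 of 45 pairs with an adjusted p under 0.05 by Pearson's r. By rank 3 pairs passed, Egr1 with Nr4a1, Egr4 with Arc (rho = 0.874, permutation p = 0.00041, adjusted 0.00922; r = 0.727) and Arc with Npas4 (rho = 0.790, permutation p = 0.00302, adjusted 0.0453; r = 0.744), while Egr1 with Egr4 did not. Without the 2 libraries farthest from the median of the first gene, r was 0.821 for Egr4 with Arc and 0.587 for Arc with Npas4, and within lane 2 it was 0.733 and 0.851. Fos was closest to its AP-1 partner Junb, with r = 0.737 (permutation p = 0.00623, adjusted 0.0521) and rho = 0.713 (permutation p = 0.0114, adjusted 0.0513), and an r of 0.719 within lane 2. It was 0.443 without V11 and V15, the libraries farthest from the median of Fos, 0.704 without V24 and 0.912 with group means removed, so its strength depended in part on V11 and V15. With the other genes the r of Fos was 0.53 for Egr1, 0.49 for Nr4a1, 0.47 for Npas4, 0.42 for Egr4, 0.37 for Arc, 0.009 for Egr2, -0.07 for Bdnf and -0.13 for Fosb.

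Across 20856 other genes tested in cortex, those most like Fos over the 12 libraries were Surf2 (r = 0.906), Gm45762 (0.895), Thop1 (0.852), Dph2 (0.849) and 4932443I19Rik (0.848). Junb ranked 76 in that order. With so many genes and 12 libraries, high values of r are found for some genes in any case, and nothing is read from these names.

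The sexes were then fitted apart, with RNA integrity as covariate. In females 0 of 10 genes passed the adjusted threshold, where 1.11% of 21731 genes did, and 0 of 10 had an unadjusted p under 0.05, where 15.4% did. The estimate was lower in nPM for 7 and higher for 3, with a median of -0.07 against -0.002 over all genes, and without V12 the split was 5 and 5 with a median of 0.009. Nr4a1 was at 12.1, 13.1 and 10.2 CPM in control females and 11.1, 9.57 and 8.24 in nPM females, where the groups overlapped, with a log2 fold change of -0.30 (SE 0.14, edgeR adjusted p = 0.329). Egr1 was at 23.6, 17.8 and 16.6 CPM in control females and 16.9, 15.2 and 15.05 in nPM females. A single nPM female, V09, reached the lowest control, and the log2 fold change was -0.23 (SE 0.11, edgeR adjusted p = 0.325). Fos, at 4.39, 4.34 and 3.49 CPM against 3.65, 2.69 and 4.85, overlapped widely and had a log2 fold change of -0.08, and that of Fosb was 0.68 on 4 to 19 reads a library.

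In males 0 of 10 genes passed by edgeR, as did 0% of all 21670 genes tested, although 978 of those, 4.51%, had an unadjusted p under 0.05 and DESeq2 called 3 of them and voom 0. Of the 10 genes, 1 was higher and 9 were lower in nPM, with a median of -0.16 against 0.003 over all genes. Fos was at 3.90, 3.57 and 4.49 CPM in control males and 3.89, 2.46 and 2.96 in nPM males, where V13 overlapped the controls, with a log2 fold change of -0.44 (SE 0.24, edgeR adjusted p = 0.962). Without V24 the direction of the set turned, with 8 of 10 estimates higher in nPM males and a median of 0.09, while that of Fos was -0.33. Arc, for which that library stood far above the other controls, was at 12.02, 10.9 and, in V24, 22.6 CPM in control males and at 16.5, 14.5 and 13.2 in nPM males.

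The difference between the sexes in the nPM effect was tested as an interaction. None of the 10 genes passed, and 0% of 20857 genes did by edgeR, where 2018 genes, 9.68%, had an unadjusted p under 0.05, DESeq2 called 66 and voom 0. The effect on Fos was lower in males by -0.40 (SE 0.28, adjusted p = 0.670) and that on Fosb by -0.78 (SE 0.69, adjusted p = 0.758), and for the other 8 genes the difference lay between -0.15 and 0.10. None of the 10 genes was called for sex itself either, against 0.0336% of all genes at the adjusted threshold, and 0 of 10 against 6.09% at the unadjusted one. Fos had the largest estimate, -0.28 in males relative to females (edgeR adjusted p = 0.800). The set was lower in males for 8 of 10 genes with a median of -0.06, which became 0.03 with 4 of 10 lower without V16, and -0.19 with all 10 lower without V24.

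**Figure D3:**
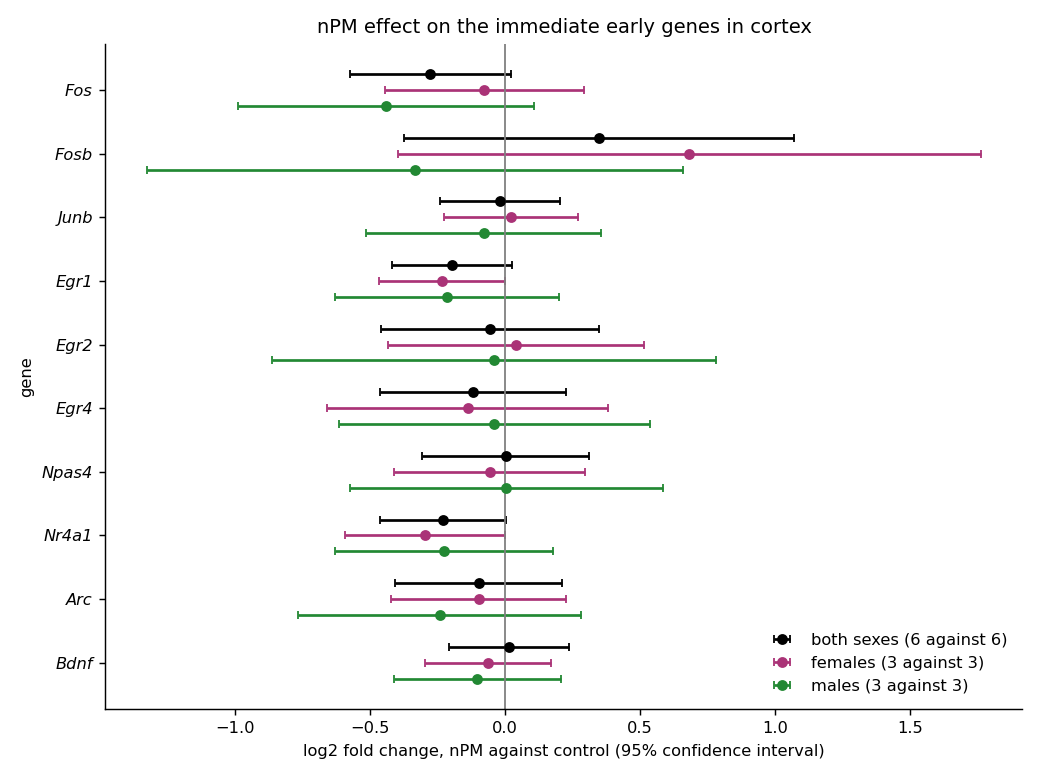
Log2 fold change of nPM against control in cortex (points) with 95% intervals (lines) for each gene in both sexes together, in females and in males. Every interval in both sexes together includes 0, and the interval of Fosb is the widest.

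The wider pathway was read from lists of its parts, each described by counts and medians. Of 20 other inducible transcription factors 19 were tested in cortex, Fosl1 having too few reads. In both sexes together none was called, with 8 higher and 11 lower in nPM and a median of -0.03, and 3 of 19 had an unadjusted p under 0.05, against 5.67% of all genes. Nr4a2, the relative of Nr4a1 that also marks deep cortical neurons, had a log2 fold change of 0.30 (SE 0.11, edgeR adjusted p = 0.844), Csrnp1 -0.40 and Crem, whose products repress CRE promoters, -0.19. Of 24 inducible effectors and feedback regulators 0 were called, with 9 higher, 15 lower and a median of -0.05, and 5 of 24 had an unadjusted p under 0.05. Dusp4, a phosphatase of MAP kinases, was at 0.35 (edgeR adjusted p = 0.808), Rgs2 at 0.16 and Trib1 at -0.23. The 7 heat shock genes, which can follow stress of the tissue, had 4 higher, 3 lower and a median of 0.03, with Hspa1a at 0.34, Hsph1 at -0.08 and Hspa8 at 0.06.

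The 24 upstream genes (glutamate receptors, calcium channels, kinases and the transcription factors that stand ready before a stimulus) were not called in both sexes together, but 23 of 24 estimates were lower in nPM, with a median of -0.07. The 3 with the smallest p were the NMDA receptor subunits Grin2a at -0.22 and Grin2b at -0.16 and the calcium-stimulated cyclase Adcy1 at -0.09. In females 23 of 24 were lower with a median of -0.11, where 49.6% of all genes were higher, and 10 of 24 had an unadjusted p under 0.05, against 15.4% of all genes. Of the 24, 19 to 23 were lower when any 1 library was left out. The list was chosen with earlier results of these data known, and its genes were measured in the same libraries. These counts therefore describe the list and are not a test of it. In males 12 were lower and 12 higher, with a median of -0.02, and 18 were higher without V24 (median 0.02). Their summed level was 9495 to 10002 CPM in control females and 8752 to 9246 CPM in nPM females, with no overlap. The share of all genes that separate in this way is not given here. An exact permutation test of 3 against 3 libraries cannot give a p below 0.1. The sum weighs the most abundant genes most, with Adcy1 and Mef2c at means of 1890 and 1524 CPM after TMM scaling in control females. Beside the upstream sum, the summed markers of cortical excitatory neurons did not overlap either. They were 821 to 839 CPM in control and 766 to 801 CPM in nPM females. The summed markers of choroid plexus were 335 to 393 and 382 to 507 CPM. Of the 6 excitatory markers 4 were lower in nPM females, while Neurod6 (0.02) and Neurod2 (0.08) were on the higher side. Inhibitory neuron markers were higher for 3 of 4, with sums of 189 to 283 CPM in control and 223 to 248 CPM in nPM females. In both sexes together the excitatory markers were lower for 6 of 6 (median -0.11), and those of inhibitory neurons were higher for 4 of 4 (median 0.18, smallest edgeR adjusted p = 0.492), of striatum for 5 of 5 (0.21), of choroid plexus for 5 of 5 (0.32) and of meninges for 2 of 3 (0.30, smallest edgeR adjusted p = 0.492), with none called. The striatal markers were higher for 3 of 5 in females (median 0.04) and 5 of 5 in males (0.51). Those of choroid plexus were higher for 5 of 5 in each sex, with medians of 0.23 in females and 0.74 in males. The control male V14 had the lowest striatal and choroid plexus sums of the 12 libraries, 74.2 and 30.5 CPM. The part of these markers in the upstream genes was not tested, and in bulk tissue fewer cells of a type and less RNA per cell cannot be told apart.

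Cacna1d, a voltage-gated calcium channel subunit that opens at low voltage, was called in the fit of females, the only upstream gene called there. It was at 75.8, 70.6 and 70.8 CPM in control females and at 59.9, 53.4 and 57.2 CPM in nPM females. The log2 fold change was -0.33 (SE 0.053, edgeR adjusted p = 0.0132). Its adjusted p was 0.0186 by voom and 0.000861 by DESeq2, but 0.245 when the female contrast was taken from a fit of both sexes, and between 0.0620 and 0.112 when any female library other than V09 was left out. In males it was at 64.8, 55.9 and 47.6 CPM in controls and 57.9, 56.6 and 70.3 CPM in nPM pups, with a log2 fold change of 0.21 (edgeR adjusted p = 0.962). The interaction was 0.48 (SE 0.15) with an adjusted p of 0.369, so a difference between the sexes was not shown at the filter used, although the adjusted p was 0.00094 with genes of any count kept. With that filter the estimate was 0.49 with a smaller SE of 0.11, and 379 genes were called for interaction, against 0 at the filter used.

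Among the other inducible genes in females, Nr4a2 had the smallest p. It was at 24.9, 25.8 and 36.4 CPM in control and 35.3, 53.4 and 42.5 CPM in nPM females, with V09 just below the highest control. Its log2 fold change was 0.53 (SE 0.12, edgeR adjusted p = 0.0637), opposite in sign to its relative Nr4a1, and the adjusted p passed the threshold with genes of any count kept (7.01e-10), with lane added (0.0371) and without V09 (0.0126), and reached 0.332 without V20. With any count kept the estimate stayed at 0.53 and only its SE fell, to 0.074. That filter also raised the calls over all genes in females from 241 to 1280. Crem was at -0.25 and Maff at 0.73 on the log2 scale, and of the effectors Homer1 was at -0.16 (edgeR adjusted p = 0.106), Dusp4 at 0.39 and Gadd45g at -0.34. In the male fit none of the pathway lists had a called gene. The inducible factors with the smallest p there were Fosl2 at 0.21, Klf2 at -0.48 and Crem at -0.23, the effectors Dusp6 at -0.25, Rgs2 at 0.18 and Cyr61 at -0.52, and the upstream genes after Cacna1d were Mef2c at -0.12 and Cacna1c at 0.12. By interaction Nr4a2 was at -0.50 (edgeR adjusted p = 0.443), Klf2 at -0.68, Klf6 at -0.22, Grin2b at 0.29, Rps6ka3 at 0.20, Dusp1 at -0.38, Cyr61 at -0.39 and Plk2 at -0.09, none called.

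The heat shock genes gave no call in any cortex comparison. In females 4 of 7 were higher with nPM (median 0.06, Hsp90aa1 at 0.10, Hspa1b at 0.54, Hsph1 at -0.07) and in males 2 of 7 (median -0.10, Hspa1a at 0.64, Hsph1 at -0.14, Dnajb1 at -0.12). Their interaction was lowest in p for Dnajb1 at -0.19, Hsp90aa1 at -0.17 and Hspa1a at 0.70. Between the sexes no pathway gene was called either. Jun and Jund, the AP-1 partners also expressed without a stimulus, were at -0.25 and -0.20 in males relative to females, Klf6 at 0.14, Dusp4 at -0.29, Inhba at -0.22, Dusp5 at -0.32, Mef2c at 0.18, Adcy1 at 0.09, Cacna1d at -0.16, Dnajb1 at 0.16, Hsp90aa1 at 0.11 and Hsph1 at 0.08.

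**Figure D4:**
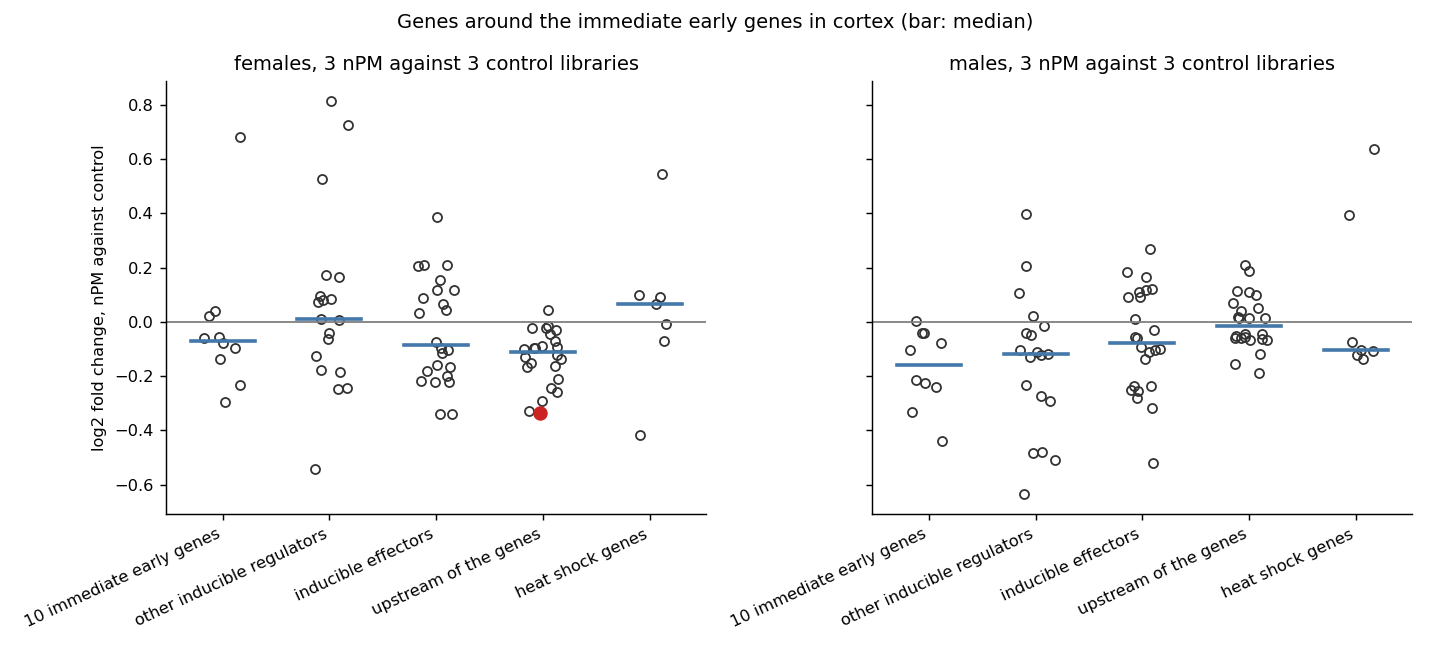
Log2 fold change of nPM against control for each gene of the pathway lists in females and in males (points), with a bar at each list's median and a filled red point for an adjusted p under 0.05. The upstream genes lie mostly below 0 in females, with a median of -0.11, and around 0 in males, with a median of -0.02, and the red point is Cacna1d in females.

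In blood the genes were near the limit of detection. With V2 left out, only Fos, Junb and Nr4a1 had at least 1 read in every library, and none of these 3 was called with nPM, where 0% of the 9977 genes tested were by edgeR, 310 genes or 3.11% had an unadjusted p under 0.05, DESeq2 called 1 and voom 0. Fos had 6, 14, 4, 3 and 3 reads in the 5 controls and 9, 5, 7, 3, 6 and 5 in the 6 nPM libraries. Junb had 32, 43, 15, 21 and 10 reads in controls and 22, 15, 11, 35, 23 and 21 in nPM libraries, and Nr4a1 16, 27, 19, 15 and 13 against 11, 18, 13, 28, 14 and 19. The exposure groups overlapped for all 3 genes. The log2 fold changes were -0.08 for Fos (SE 0.40), -0.28 for Junb (SE 0.34) and -0.12 for Nr4a1 (SE 0.30), so that a change as small as those estimated in cortex was not detectable at this depth. Egr1 had 0 to 10 reads a library, Arc, Npas4 and Bdnf 0 to 3, Fosb and Egr2 0 to 2, and Egr4 had 0 in all 12 blood libraries, V2 included.

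Against blood, the genes fell on both sides of the all-gene median. In the 6 control cortex and 5 control blood libraries, 8 of 9 genes tested were called between the tissues by edgeR, where 79.4% of 17610 genes were (80.9% at the unadjusted threshold), so a call here is common to most genes. Arc was higher in cortex by 3.95 on the log2 scale, Npas4 by 4.32, Bdnf by 5.86 and Egr1 by 1.96 (Egr4, also called, had no blood read and is given as a bound below), against an all-gene median of 0.95 on the same TMM scale. Fos (-0.78, adjusted p = 0.0251), Junb (-1.53, adjusted p = 5.81e-06) and Nr4a1 (-0.90, adjusted p = 0.000364) were lower in cortex on that scale, but this direction turned with the scaling, to 3.60, 2.93 and 3.55 higher on library totals alone and 1.72, 1.01 and 1.63 higher with globin genes left out of the totals. Relative to the all-gene median, which was 0.95, 5.13 and 3.41 under the 3 scalings, Fos was at -1.73, -1.53 and -1.69, Junb at -2.48, -2.20 and -2.41 and Nr4a1 at -1.85, -1.58 and -1.78. In the same terms Arc was at 3.01, 2.77 and 2.89 and Bdnf at 4.91, 3.84 and 4.42, so these 5 kept their side of that median under the 3 scalings. The call on Fos was lost without the blood library V4 (-0.42, adjusted p = 0.317) or V17 (-0.69, adjusted p = 0.0682) and with genes of any count kept (-0.50, adjusted p = 0.226). With V2 kept, the calls on Egr1 (0.69, adjusted p = 0.376) and Nr4a1 (-0.67, adjusted p = 0.0606) were lost and Egr2 turned to -1.33 (adjusted p = 0.154). Egr2 was not called (1.40, adjusted p = 0.0839) and Fosb had too few reads to be tested.

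Counted on library totals, cortex held more of every one of the 10 genes, as it did of 16578 of 17610 genes tested on that scale. The all-gene median there was a log2 difference of 5.13, and Fos, Junb and Nr4a1 lay below it, as given above. Bdnf had 2757 reads over the 6 control cortex libraries and 1 over the 5 control blood libraries, a ratio of 1456 with an exact 95% counting interval of 261 to 57512. Arc had 2686 and 4 reads, a ratio of 355 (138 to 1302), and Npas4 946 and 1 reads, a ratio of 499 (89.4 to 19748). Egr4, with 514 reads in cortex and 0 in blood, was 90.5-fold above a floor of 3 reads over the group. The exact lower counting limit of its ratio was 73.3, which is the bound. These 4 genes are the ones whose expression is known to be largely neuronal. The ratio was 85.6 for Egr1 (55.4 to 140), 60.2 for Egr2 (20.4 to 293, on 3 blood reads), 18.5 for Fosb (4.93 to 156, on 2 blood reads), 12.7 for Fos (8.79 to 18.9), 11.98 for Nr4a1 (9.70 to 14.96) and 7.61 for Junb (6.33 to 9.23). The last 3 are used by many cell types, white blood cells included. The intervals cover counting error only, and globin reads, which fill most of a blood library, lower every other gene's share there.

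**Figure D5:**
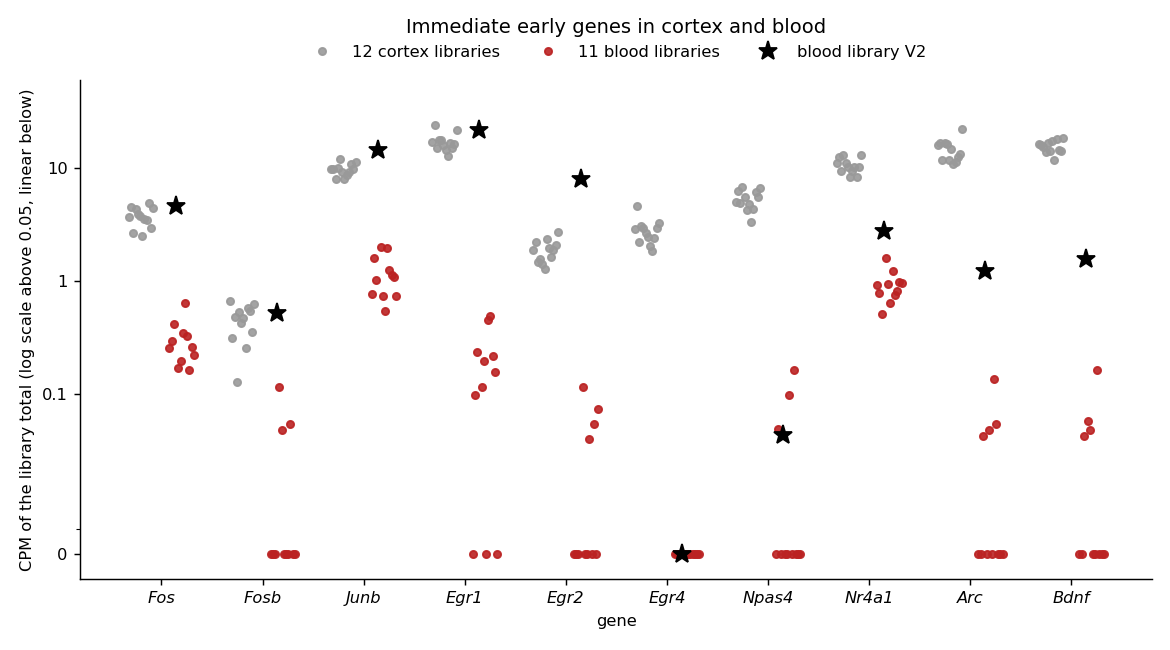
Level of each gene in cortex and blood libraries (CPM of the library total, log scale above 0.05 and linear below it), with a star for the blood library V2. Arc, Npas4, Egr4 and Bdnf lie at or near 0 in the 11 other blood libraries. V2 lies above those for 8 of the 10 genes, and for 72.8% of 25451 genes of all kinds.

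The blood library left out, V2, held far more of most of the genes than any other blood library. Egr1 had 462 reads, 21.8 CPM (95% Wilson interval 19.9 to 23.9), where the other 11 had 0 to 10 reads. Egr2 had 169 reads, 7.98 CPM (6.87 to 9.28), against 0 to 2, and Junb 305 reads, 14.4 CPM (12.9 to 16.1), against 10 to 43. Fos had 98 reads, 4.63 CPM (3.80 to 5.64), against 3 to 14. On the same scale of library totals the cortex libraries ran from 12.8 to 24.3 CPM for Egr1 and from 2.48 to 4.89 for Fos, ranges that include V2, and reached 12.1 for Junb and 2.71 for Egr2, below V2.

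Of the genes known as largely neuronal, Arc and Bdnf were also above the other blood libraries, and Npas4 and Egr4 were not. Arc had 26 reads in V2 (1.23 CPM, 0.838 to 1.80) and Bdnf 33 (1.56 CPM, 1.11 to 2.19), against 0 to 3 in the other blood libraries and at least 10.9 and 11.8 CPM in cortex. Npas4 had 1 read and Egr4 0. V2 was above all other blood libraries for 8 of the 10 genes, 18 of 20 other inducible factors, 20 of 24 inducible effectors, 17 of 24 upstream genes and 7 of 7 heat shock genes, against 72.8% of 25451 genes of all kinds. It was also above them for 4 of 4 endothelial and 3 of 3 meningeal or fibroblast markers, the latter with a sum of 1336 CPM against 4.20 to 17.9. For cortical excitatory neuron markers it was above them in 1 of 6 with 3 at 0, and all 5 choroid plexus markers were at 0. Of 4 inhibitory neuron markers V2 was above them for 2, Dlx1 (26 reads against 0 to 1) and Dlx2 (40 against 0). Of 5 striatal markers it was above them for 2, with 2 at 0. The 5 neutrophil markers and 4 of 5 erythroid markers were below every other blood library. The part of these cell types in the immediate early gene level of V2 was not tested.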

How the data were processed

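RNA of 12 cortex and 12 blood samples was depleted of ribosomal RNA (RiboZero Gold) and sequenced on an Illumina HiSeq sequencer. Per the labels and the submitters' processing notes, reads passed FastQC and Trimmomatic, were aligned with HISAT2 to mm10/GRCm38 and were counted per gene with featureCounts 1.5.0-p3; the other versions and the strand setting are not given in the sources used here. The authors deposited raw counts per gene, and a gene table with a mean RPKM over all libraries, which was not used. RPKM printed here was computed from the deposited counts and gene lengths.

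Counts were tested with edgeR 4.0.16 in R 4.3.3 (TMM, quasi-likelihood F test, two-sided), on genes counted at least once in all libraries fitted, with sex and RNA integrity number as covariates (integrity alone in the fits by sex). P-values were adjusted by Benjamini-Hochberg over all genes tested, with a threshold of 0.05. The blood fit left out V2, named from earlier work on these data because the study does not name the sample. The tissue fit used filterByExpr and sex. Correlations used log2 CPM after TMM scaling, without a pseudocount, and 100000 permutations. A pseudocount of 0.5 was added for the log2 differences within lanes. limma 3.58.1 (voom), DESeq2 1.42.0, other filters, scalings and covariates, and leaving out each library were alternatives. The scripts were tested on simulated data. No pair of libraries of a group agreed within sampling noise (smallest chi-square per gene 9.15). Intervals are at 95%. Those of counts (Wilson or exact) and the floor of 3 counts cover counting error only.

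The members, the pathway lists and the tests were chosen with earlier results of these data known. All 10 members were named in every comparison. From each pathway list the text names genes past the adjusted threshold (up to 5), or else the 3 with the smallest p, and the 5 genes most correlated with Fos. Details beyond that rule, such as V24 and V2, were singled out after values were seen.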

Additional observations from a re-analysis of the deposited data

Results flagged for a closer look

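Within each tissue and exposure, the highest or lowest library was checked for its distance from the rest by Dixon's ratio at the 95% level, in 38 groups, of which chance alone marks about 1 in 20. That rate does not hold where most libraries of a group had no reads. The marks on V2 are not separate results, since they come from a single library already known to stand apart. All the libraries marked were in blood, and none in cortex. Among the blood controls the female library V2 was the highest for 8 of the 10 genes: 4.63 CPM for Fos (next library 0.639), 0.519 for Fosb (0.0540), 14.4 for Junb (1.96), 21.8 for Egr1 (0.457), 7.98 for Egr2 (0.0736), 1.23 for Arc (0.137), 2.79 for Nr4a1 (1.23) and 1.56 for Bdnf (0.0494). The same 8 values belong to a library that the blood comparison left out. V2 was above all other blood libraries for 72.8% of 25451 genes of all kinds, so a high value there was common to most genes. Nr4a1, at 59 reads against 11 to 28, showed the smallest such gap.

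Among the nPM blood libraries, V21 was marked for Fosb and for Egr2, each at 0.114 CPM from 2 reads where the other 5 libraries had 0, and V5 for Bdnf, at 0.163 CPM from 3 reads where the next had 0.0572. These rest on so few reads that they lie at or under the detection floor of 3 reads.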

How the results depend on the processing

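No paired analysis was possible because the labels do not tie libraries of different groups to each other. The study does describe both tissues as coming from the same animals, so the tissue comparison ignored that pairing. None of the 10 genes passed the adjusted threshold in the cortex nPM, sex and interaction comparisons or in blood under any alternative run, and the cause of the shifts below was not tested.

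Over all genes, the calls for nPM in cortex (3) were 22 with DESeq2, 185 with genes of any count kept, 1 without the integrity covariate, 1 with lane added and 0 to 6 with 1 library left out (6 without V24). For sex (7) they were 26 with DESeq2, 165 with any count kept and 4 with at least 10 counts required. For females (241) they were 445 with DESeq2, 1280 with any count kept, 0 with the contrast from both sexes and 23 (without V11) to 383 (without V09). For males (0) they were 3 with DESeq2, 155 with any count kept, 5 with lane and 0 to 8 (without V24). For the interaction (0) they were 66, 379 and 0 to 1 (without V23), and for blood (0) 1 and 28, with DESeq2 and with any count kept.

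Some signs turned. Without the integrity covariate the sex difference was 0.063 for Junb, 0.089 for Arc and 0.0050 for Bdnf, the nPM effect in females -0.0077 for Junb and -0.037 for Egr2, that in males 0.015 for Fosb, 0.044 for Egr4 and 0.085 for Bdnf, and the interaction 0.094 for Arc. By voom the male effect was 0.014 for Egr2 and -0.0056 for Npas4, with lane it was -0.038 for Npas4, and from the fit of both sexes 0.055 for Bdnf. With V2 kept, the blood effect was 0.038 for Nr4a1 and the tissue difference -1.33 for Egr2. The tissue difference was 3.60 for Fos, 2.93 for Junb and 3.55 for Nr4a1 on library totals alone and 1.72, 1.01 and 1.63 without globin genes, 2 scalings added after the data were seen.

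With any 1 library left out, the nPM effect ran from -0.081 to 0.059 for Junb, -0.16 to 0.074 for Egr2, -0.17 to 0.069 for Arc, -0.085 to 0.13 for Npas4 and -0.053 to 0.096 for Bdnf. The sex difference ran from -0.24 to 0.22 for Fosb, -0.14 to 0.028 for Junb, -0.030 to 0.18 for Egr2, -0.21 to 0.079 for Arc, -0.17 to 0.039 for Nr4a1 and -0.12 to 0.098 for Bdnf. In females the effect ran from -0.22 to 0.037 for Fos, -0.065 to 0.10 for Junb, -0.022 to 0.13 for Egr2, -0.42 to 0.20 for Egr4, -0.29 to 0.10 for Arc, -0.23 to 0.15 for Npas4 and -0.17 to 0.084 for Bdnf. In males it ran from -0.65 to 0.0032 for Fosb, -0.22 to 0.076 for Junb, -0.58 to 0.060 for Egr1, -0.37 to 0.47 for Egr2, -0.46 to 0.17 for Egr4, -0.50 to 0.24 for Arc, -0.51 to 0.41 for Npas4, -0.23 to 0.094 for Bdnf and -0.014 to 0.26 for Cacna1c. The interaction ran from -0.22 to 0.040 for Junb, -0.17 to 0.28 for Egr1, -0.43 to 0.17 for Egr2, -0.25 to 0.38 for Egr4, -0.35 to 0.36 for Arc, -0.13 to 0.44 for Npas4, -0.12 to 0.28 for Nr4a1 and -0.15 to 0.30 for Bdnf. The blood effect for Fos ran from -0.20 to 0.25.

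For nPM in cortex with 6 libraries per exposure, the 95% interval of the log2 fold change was -0.24 to 0.20 for Junb and -0.37 to 1.07 for Fosb, so changes of any size within those bounds are compatible with the data. In blood 7 of the 10 genes had too few reads to be tested.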
